A study of Mus musculus with 9 samples.

Results

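Lipoxygenases, cyclooxygenases and related enzymes make signalling lipids from arachidonic acid or act on such lipids. In mouse kidney cortex 9 of their genes are described here: Alox15, Alox12, Alox5, Ptgs1, Ptgs2, Ptges, Ptgds, Hpgd and Ephx2. They were taken by name, each by its brightest probe set with a single gene symbol, and 8 of the 9 had such a probe set and passed the filter on dim genes, out of 17740 genes that passed it in all. Ptgs1, the constitutive cyclooxygenase, had no probe set with a single symbol in the annotation used, so no value is given for it. The genes were chosen by name with these arrays' log2 values in all 3 groups in view, among them the Alox15 difference between db/db and db/m. Their values are therefore described and not tested in any of the comparisons, and calls are only counted beside the share of all genes called.

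Kidneys came from 20-week-old male C57BLKS/J mice, with 3 arrays in each of 3 groups, each labelled a biological replicate. The db/db+TSF group was db/db mice gavaged with Tang-shen Formula (TSF), a Chinese herbal medicine, at 2.4 g/kg/day for 12 weeks. The db/db group received saline, and the db/m group, for which no gavage is described, served as lean controls. Mice with 2 mutant copies of the leptin receptor gene (db/db) become obese and diabetic, while db/m mice carry a single copy. The labels give 9 mice in each of the db/db and db/db+TSF groups and do not say whether an array held 1 mouse or a pool. The study set out to find genes through which the formula acts on diabetic kidney injury.

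Values are log2(intensity + 1) unless another scale is named, and a difference of 1 on this scale is a doubling. Array medians lay between 10.28 and 11.2 intensity units, and levels of different genes are not compared because probe sets differ in brightness. Of 10 proximal tubule markers 0 passed by limma in db/db against db/m and 2 fell in db/db+TSF against db/m, beside 1.92% of all genes called lower. Slc34a1, a sodium-phosphate transporter, measured 12.12 to 12.27 over all arrays, while the amino acid transporter Slc7a13 averaged 8.03 in db/db+TSF, 9.36 in db/db and 10.74 in db/m. The 4 podocyte markers summed to an intensity of 784 to 835 in db/db+TSF, 722 to 765 in db/db and 611 to 711 in db/m. One array stood apart. The summed intensity of 10 neutrophil markers was 557 in db/db replicate 3 and 82.1 to 93.9 in the other 8 arrays, and that of 6 platelet markers was 815 in the same array and 200 to 244 in the others. In db/db against db/m, with this array included, all 9 neutrophil markers tested had a difference above 0. Of the 6 platelet markers 3 lay above 0 and 3 below, from -0.06 to 0.85, so the platelet sum does not stand for the whole list.

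As background, lipoxygenases add oxygen to arachidonic acid to make hydroperoxy acids, leukotrienes and related mediators. Cyclooxygenases make prostaglandin H, which separate synthases turn into prostaglandins E, D, F, prostacyclin and thromboxane. Cytochrome P450 epoxygenases make epoxides, which soluble epoxide hydrolase opens to diols. In kidney these lipids act on blood flow, renin release and the handling of salt and water.

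Alox15 encodes the leukocyte-type lipoxygenase of mice. It measured 4.64, 4.63 and 4.85 in db/db+TSF, 4.59, 4.91 and 4.74 in db/db and 7.26, 8.22 and 8.30 in db/m. All 6 arrays from db/db animals, treated or not, lay between 4.59 and 4.91, and the lowest db/m array lay 2.35 above the highest of them. In deposited intensity units this was 23.7 to 27.8 in db/db+TSF, 23.1 to 29.1 in db/db and 152 to 315 in db/m. The fitted difference was -3.18 (SE 0.23) for db/db against db/m, which is 9.05-fold lower, and -3.22 (SE 0.23) for db/db+TSF against db/m, which is 9.33-fold lower. The size of these folds depends on the pseudocount, since values on the db/db side were low. With 16 in place of 1 the differences were -2.63 and -2.66, and with no pseudocount they were -3.23 and -3.27. The db/m arrays spread widely, with an SD of 0.58, against 0.12 in db/db+TSF and 0.16 in db/db, and replicate 1 was the lowest of them. Without db/m replicate 1 the differences were -3.51 and -3.55. Between the db/db groups the difference was -0.04 (SE 0.23, db/db+TSF minus db/db), and their arrays overlapped.

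Summed macrophage markers and summed T and B cell markers were lower in both db/db groups than in db/m, while the sums of mast cell and eosinophil markers overlapped. Only 2 of the 6 mast cell markers passed the filter on dim genes, so the overlap of their sums says little about mast cells. The summed intensity of 10 macrophage markers was 415 to 521 in db/db+TSF, 513 to 615 in db/db and 629 to 674 in db/m. Their part in the Alox15 difference was not tested, and in whole tissue fewer cells of a type and less RNA per cell cannot be told apart. All 10 markers had a difference below 0 in db/db against db/m, where 0 passed by limma and 4 had an unadjusted p under 0.05, as had 2474 of all 17740 genes. In db/db+TSF against db/m 4 of the 10 fell, beside 1.92% of all genes called lower. One of these 4 was Csf1r. This gene, the receptor that macrophages need to survive, measured 6.48, 5.65 and 6.02 in db/db+TSF, 6.34, 6.31 and 6.56 in db/db and 6.76, 6.89 and 6.99 in db/m. The 7 T and B cell markers summed to 72.8 to 80.9 in db/db+TSF, 71.8 to 82.2 in db/db and 104 to 110 in db/m. Eosinophils and large peritoneal macrophages are known sources of Alox15 in mice. The 5 eosinophil markers summed to 33.0 to 35.5 in db/db+TSF, 32.9 to 36.3 in db/db and 31.7 to 36.4 in db/m, which overlap, and each of the 5 lay near the bottom of the scale. The 6 markers of large peritoneal macrophages summed higher on the db/db side, to 183 to 254 in db/db+TSF, 165 to 192 in db/db and 129 to 143 in db/m. Of the 5 that passed the filter, 4 had a difference above 0 in db/db against db/m, where 0 passed by limma and 2 had an unadjusted p under 0.05. Cxcl13 rose in db/db+TSF against db/m, by 1.18 (SE 0.18, adjusted p = 0.00704), beside 1.22% of all genes called higher. The levels of Gata6, Garnl3, Timd4 and Prg4 were dim, between 2.35 and 4.78 over all arrays, and Prg4 did not pass the filter. The higher sum is therefore not read as more of these macrophages.

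**Figure D1:**
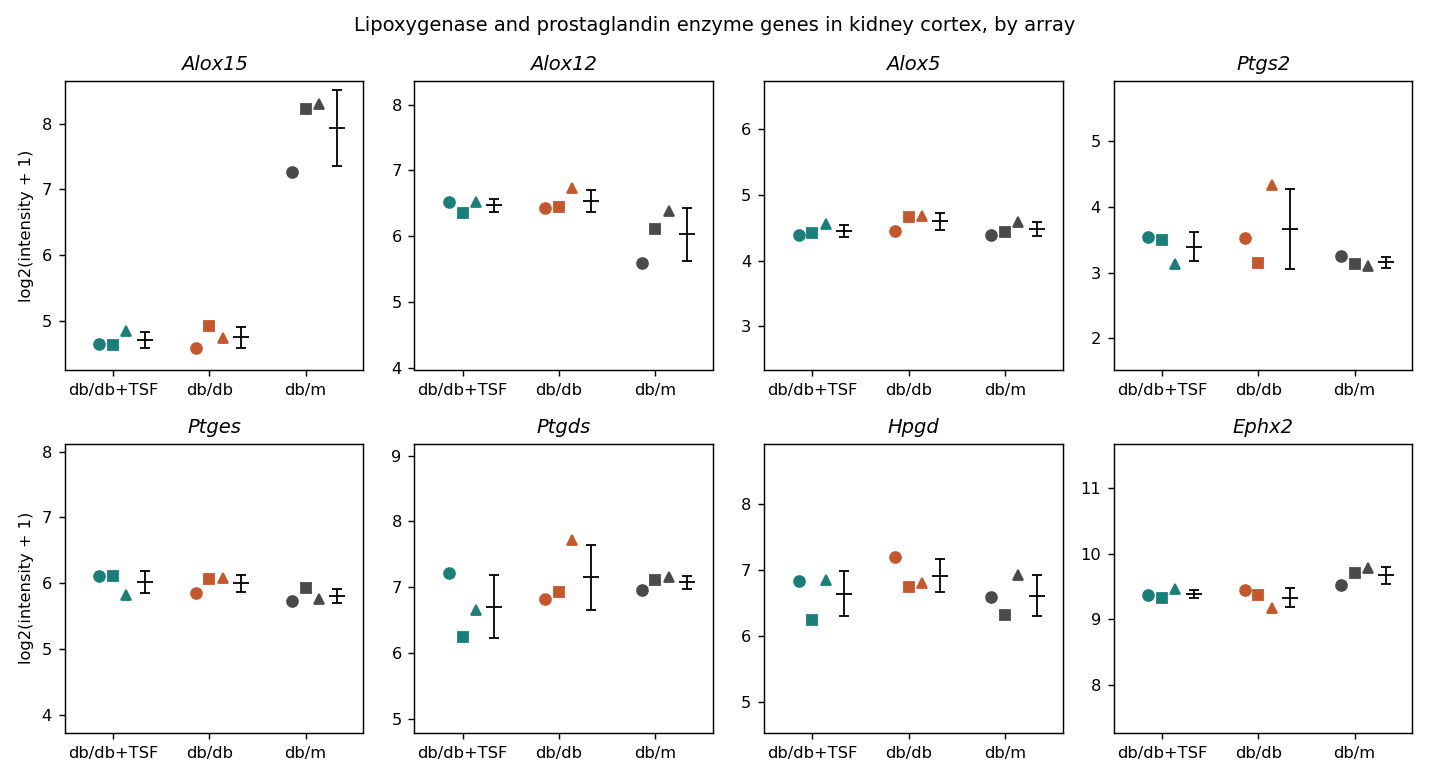
Level of each of the 8 measured genes as log2(intensity + 1), in db/db+TSF, db/db and db/m. Circles, squares and triangles are replicates 1, 2 and 3, and the black bars are the mean and SD of 3 arrays; every panel spans the same number of log2 units. Alox15 lies near 4.7 in both db/db groups and above 7.2 in db/m, while the groups of most other genes overlap.

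Alox12 encodes the platelet-type lipoxygenase and lies near Alox15 on chromosome 11, with Alox12e between them. It measured 6.53, 6.35 and 6.52 in db/db+TSF, 6.43, 6.44 and 6.73 in db/db and 5.60, 6.10 and 6.38 in db/m. Every db/db array lay above every db/m array, though the closest pair differed by little, and db/db+TSF overlapped db/m. The difference was 0.50 (SE 0.17) for db/db against db/m, opposite in sign to that of Alox15, and 0.44 (SE 0.17) for db/db+TSF against db/m. Much of it came from the low db/m replicate 1: without it the differences were 0.29 and 0.23. The summed intensity of platelet markers was 200 to 244 in db/db+TSF, 234, 230 and 815 in db/db and 221 to 227 in db/m, though 3 of the 6 markers had a difference below 0 in db/db against db/m. The part of platelets in the Alox12 difference was not tested.

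Alox5 encodes the lipoxygenase that starts leukotriene synthesis, mainly in white blood cells. It measured 4.39, 4.42 and 4.56 in db/db+TSF, 4.44, 4.67 and 4.68 in db/db and 4.39, 4.44 and 4.59 in db/m. All 3 groups overlapped, and the differences ran from -0.14 to 0.12. Its other probe set was dimmer and also overlapped, at 3.63 to 3.84 in db/db+TSF, 3.67 to 3.97 in db/db and 3.53 to 3.91 in db/m.

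Among the prostaglandin enzymes, Ptgs2 encodes the inducible cyclooxygenase, which the macula densa expresses in kidney cortex. It measured 3.54, 3.49 and 3.14 in db/db+TSF, 3.53, 3.14 and 4.33 in db/db and 3.25, 3.12 and 3.10 in db/m. A single array, db/db replicate 3, stood above the other 8. The difference for db/db against db/m was 0.51 (SE 0.24) with that array and 0.18 without it, and for db/db+TSF against db/db it was -0.28 (SE 0.24) with it and 0.05 without it.

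Ptges encodes the inducible prostaglandin E synthase. It measured 6.11, 6.10 and 5.82 in db/db+TSF, 5.85, 6.06 and 6.08 in db/db and 5.73, 5.92 and 5.76 in db/m. The groups overlapped, with differences of 0.19 (SE 0.11) for db/db against db/m and 0.21 (SE 0.11) for db/db+TSF against db/m.

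Ptgds encodes the lipocalin-type prostaglandin D synthase, and its protein in urine has been studied as a marker of diabetic kidney disease. It measured 7.21, 6.25 and 6.65 in db/db+TSF, 6.81, 6.92 and 7.72 in db/db and 6.96, 7.11 and 7.15 in db/m. The highest value was again db/db replicate 3, and the lowest was db/db+TSF replicate 2. The difference for db/db against db/m was 0.07 (SE 0.25) with db/db replicate 3 and -0.21 without it. For db/db+TSF against db/db it was -0.45 (SE 0.25) with that array and -0.16 without it. The group SD was 0.49 in db/db+TSF and 0.49 in db/db, against 0.10 in db/m.

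Hpgd encodes the dehydrogenase that inactivates prostaglandins. It measured 6.84, 6.25 and 6.84 in db/db+TSF, 7.20, 6.74 and 6.80 in db/db and 6.60, 6.31 and 6.93 in db/m. The groups overlapped, and the differences were 0.30 (SE 0.20) for db/db against db/m and -0.27 (SE 0.20) for db/db+TSF against db/db.

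Ephx2 encodes soluble epoxide hydrolase, which is abundant in the proximal tubule. It measured 9.37, 9.32 and 9.45 in db/db+TSF, 9.45, 9.37 and 9.16 in db/db and 9.52, 9.70 and 9.78 in db/m. As with Alox15, all 6 arrays of the db/db genotype lay below all 3 db/m arrays, but the step was small. The difference was -0.34 (SE 0.11) for db/db against db/m, -0.28 (SE 0.11) for db/db+TSF against db/m and 0.06 (SE 0.11) for db/db+TSF against db/db. Without db/db replicate 3, the lowest array, the first of these was -0.26. The summed intensity of 10 proximal tubule markers was 21093 to 21739 in db/db+TSF, 20392 to 22210 in db/db and 21943 to 23912 in db/m. Of these 10, the groups were apart and lower for 3 and higher for 1 in db/db against db/m, beside 8.28% and 10.4% of all genes. In db/db+TSF against db/m they were apart and lower for 4 and higher for 1, beside 12.4% and 9.76%. There Slc7a13 fell by 2.70 (SE 0.58, adjusted p = 0.0327) and Acsm2, a fatty acid ligase gene, fell by 0.51 (SE 0.11, adjusted p = 0.0346), beside 1.92% of all genes called lower. The part of these markers in the Ephx2 difference was not tested.

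Counted together, 1 of the 8 measured genes, Alox15, passed the threshold in db/db against db/m, lower in db/db, beside 1.05% of all genes called in either direction, 0.592% called higher and 0.462% called lower. The threshold is an adjusted p of 0.05 from limma over all 17740 genes. In db/db+TSF against db/m the same gene of the 8 passed, beside 3.13% called in either direction, 1.22% higher and 1.92% lower. These comparisons share the db/m arrays. Between db/db+TSF and db/db none of the 8 passed by limma or by the test without moderation, beside 0.0% of all genes, although 2079 of all genes had an unadjusted p under 0.05. Groups did not overlap for Alox15 and Ephx2 (lower) and Alox12 (higher) in db/db against db/m, where 18.6% of all genes were apart, 8.28% lower and 10.4% higher. They did not overlap for Alox15 and Ephx2 in db/db+TSF against db/m, where 22.1% of all genes were apart, 12.4% lower and 9.76% higher. No member was apart in db/db+TSF against db/db, where 20.1% of all genes were apart, 12.3% lower and 7.81% higher. Nothing about the members is read from these counts. The median difference over the 8 was 0.16, 0.01 and -0.10 for db/db against db/m, db/db+TSF against db/m and db/db+TSF against db/db, and over all genes it was 0.01, -0.0002 and -0.02.

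**Figure D2:**
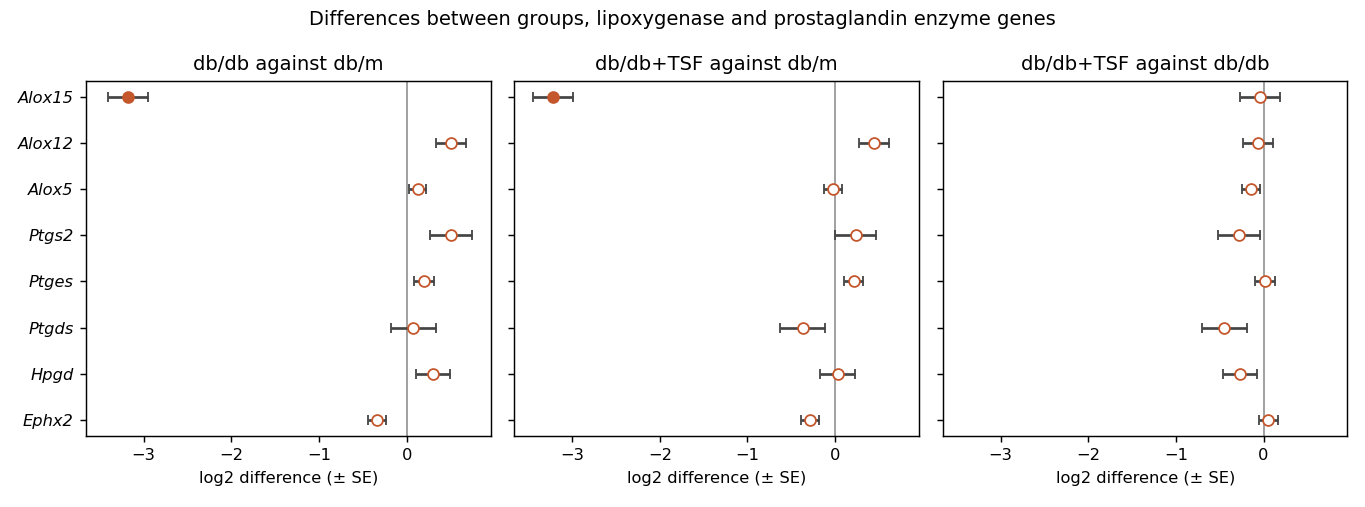
Log2 difference with its SE for the 8 measured genes in the 3 comparisons. Filled points passed an adjusted p of 0.05 over all genes and are shown as a description, since the genes were chosen with these results known. Alox15 sits at -3.18 and -3.22 against db/m and at -0.04 between the db/db groups.

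The members' neighbours on the chromosome were read from the gene order of a RefSeq table of the GRCm38 assembly. Alox12, Alox12e and Alox15 follow one another on chromosome 11, and the 10 protein-coding genes on either side of Alox15 were looked up. Besides Alox12, 16 of them were tested, and in db/db against db/m 0 passed by limma (unadjusted p from 0.0837 to 0.924), beside 1.05% of all genes called. Their differences ran from -0.26 to 0.23, with 13 below 0 and 3 above. Alox12e, the epidermal lipoxygenase, was at 2.69 in db/db+TSF, 2.75 in db/db and 2.84 in db/m, near the filter on dim genes at 2.65. Pelp1, the next gene on the other side, differed by -0.17 (SE 0.10, adjusted p = 0.473). In db/db+TSF against db/m the groups were apart and lower for 5 of the 16 and higher for 1, beside 12.4% and 9.76% of all genes. There 1 of the 16 passed, beside 3.13% of all genes called. It was Bcl6b, a transcriptional repressor gene, which fell by 0.67 (SE 0.13, limma adjusted p = 0.0192). Its call was lost without db/db+TSF replicate 2 (0.0803) or 3 (0.0841) and without db/m replicate 1 (0.0756) or 2 (0.0576).

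**Figure D3:**
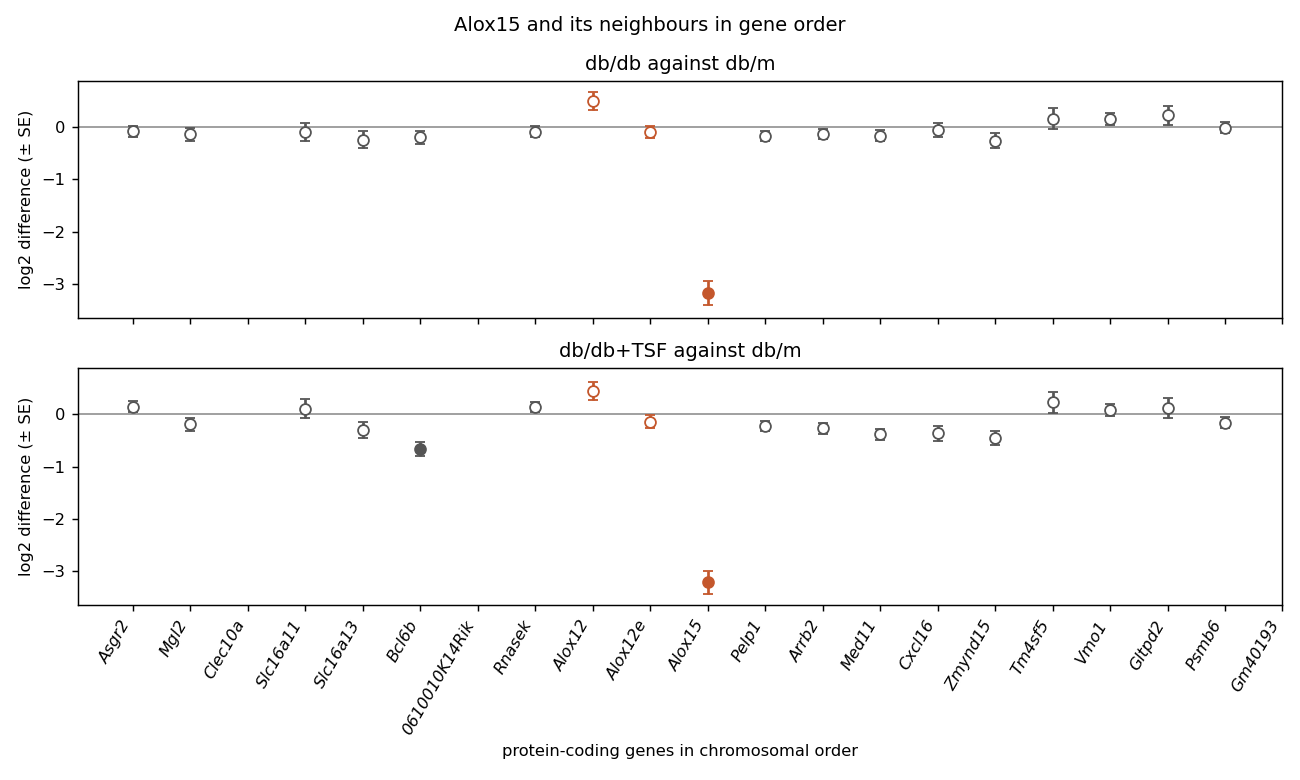
Log2 difference with its SE for Alox15 and the protein-coding genes in order on either side of it, in db/db against db/m (upper panel) and db/db+TSF against db/m (lower panel). Lipoxygenase genes are orange, filled points passed an adjusted p of 0.05 over all genes, and genes with no point had no single-symbol probe set or were too dim. Alox15 stands alone near -3.2 in both panels.

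Genes with a pattern like that of Alox15 over the 9 arrays were listed as a description. The highest Pearson correlations were those of the organic cation transporter Slc22a2 (0.987), the alcohol dehydrogenase Adh1 (0.987), the fatty aldehyde dehydrogenase Aldh3a2 (0.987), Cym (0.987), which encodes chymosin, and the organic anion transporter Slco1a1 (0.985). The lowest were those of the ornithine aminotransferase Oat (-0.978), the palmitoyltransferase Zdhhc13 (-0.977), Myof (-0.974), which encodes myoferlin, the lipid hydrolase Abhd6 (-0.966) and the mannosidase Man2a1 (-0.964). Alox15 splits the 9 arrays into high db/m values and low db/db values, so such correlations mainly record the step between them. The step had very different heights: Slc22a2 averaged 10.40 in db/db+TSF, 10.43 in db/db and 10.92 in db/m, whereas Cym averaged 4.63, 4.74 and 6.45 and Slco1a1 averaged 2.10, 2.21 and 8.36 in the same order of groups. The step of Slco1a1 was thus larger than that of Alox15.

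The other arachidonic acid genes were listed by role: 62 were named, 55 had a probe set and 51 passed the filter and were tested. In db/db against db/m 2 of the 51 rose and 1 fell, beside 1.05% of all genes called, and in db/db+TSF against db/m 5 rose and 1 fell, beside 3.13%. Between the db/db groups 0 of the 51 passed by limma or without moderation, and 3 had an unadjusted p under 0.05, as had 2079 of all 17740 genes. The median difference over the 51 was 0.04, 0.03 and 0.01, against 0.01, -0.0002 and -0.02 over all genes. The 2 that rose in db/db against db/m were Abcc4 and Ephx1, whose results there were known when the list was drawn up. Their calls and adjusted p in that comparison are therefore a description and no test. Nothing is read from the count of genes called there. For db/db against db/m the number called was 0 when db/db replicate 1 was left out, and 1 when db/db replicate 2 or 3 or db/m replicate 1 or 3 was.

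Among the epoxygenases and other epoxide hydrolases, Cyp2j13 was the member that fell. This P450 of the Cyp2j family measured 7.98, 8.17 and 8.83 in db/db+TSF, 9.14, 9.08 and 8.48 in db/db and 9.85, 10.31 and 10.06 in db/m. Both db/db groups lay wholly below db/m, and they overlapped each other. The difference was -1.17 (SE 0.23, adjusted p = 0.0374) for db/db against db/m and -1.75 (SE 0.23, adjusted p = 0.00299) in db/db+TSF relative to db/m. The first call was lost without any 1 of the db/db or db/m arrays (adjusted p 0.0708 to 0.112), and likewise with a pseudocount of 16, with array weights, without moderation and with the replicate number as a block. The second passed in all 9 fits with 1 array left out. Cyp2j genes lie in a family of close relatives, and cross-hybridisation between their probe sets was not examined.

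Ephx1, the microsomal epoxide hydrolase, rose in both comparisons with db/m. It measured 8.96, 8.62 and 8.93 in db/db+TSF, 8.47, 8.56 and 8.70 in db/db and 8.06, 7.95 and 7.71 in db/m. The groups did not overlap with db/m, and the difference was 0.67 (SE 0.12, adjusted p = 0.0317) for db/db against db/m and 0.93 (SE 0.12, adjusted p = 0.00336) in db/db+TSF relative to db/m. The first call held in 2 of the 9 fits with 1 array left out, those without db/db+TSF replicate 1 or 2, and elsewhere its adjusted p ran from 0.0541 to 0.114. It was also lost without moderation and with the replicate number as a block. Cyp2j6 measured 6.65, 6.68 and 6.38 in db/db+TSF, 6.53, 6.40 and 6.53 in db/db and 5.87, 6.15 and 6.09 in db/m. It rose in db/db+TSF against db/m (0.53, SE 0.11, adjusted p = 0.0294), a call lost without db/db+TSF replicate 1 (0.0877) or 2 (0.111) or db/m replicate 1 (0.0979) or 3 (0.0513), and differed by 0.45 in db/db against db/m (adjusted p = 0.0903).

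In prostaglandin transport and breakdown, Abcc4, a pump that exports prostaglandins from cells, rose. It measured 8.61, 8.89 and 8.59 in db/db+TSF, 8.49, 8.68 and 8.30 in db/db and 7.35, 7.60 and 7.78 in db/m. Every array of either db/db group lay above every db/m array. The difference was 0.92 (SE 0.14, adjusted p = 0.0115) for db/db against db/m, lost without db/db replicate 1 (0.0536), and 1.12 (SE 0.14, adjusted p = 0.00229) in db/db+TSF relative to db/m. The uptake carrier Slco2a1 averaged 8.82 in db/db+TSF, 8.56 in db/db and 8.57 in db/m and passed in no comparison. Ptgr1, a prostaglandin reductase, averaged 5.09 in db/db+TSF, 5.39 in db/db and 5.50 in db/m (adjusted p = 0.166 with db/db+TSF set against db/m), and Ptgr2 averaged 8.50, 8.63 and 8.40 in the same groups.

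Of the other lipoxygenases and leukotriene enzymes, Ltc4s, the synthase that joins leukotriene A to glutathione, was the 1 of 10 that passed. It measured 5.29, 5.27 and 5.12 in db/db+TSF, 4.68, 5.19 and 4.97 in db/db and 4.05, 4.55 and 4.13 in db/m. Both db/db groups lay above db/m, and Ltc4s rose by 0.98 (SE 0.15, adjusted p = 0.00769) when db/db+TSF was set against db/m. For db/db against db/m the difference was 0.70 (SE 0.15), just short of the threshold (adjusted p = 0.0571). Over the alternatives its adjusted p ran between 0.0332, without db/m replicate 2, and 0.235, without moderation. Ggt5, which trims leukotriene C, averaged 5.08 in db/db+TSF, 5.06 in db/db and 4.72 in db/m and passed in neither comparison with db/m (adjusted p = 0.249 and 0.353).

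In db/db replicate 3, 6 of the 51 other pathway genes had their highest value of all 9 arrays, as had 12.3% of all genes. Alox5ap, which presents arachidonic acid to the Alox5 enzyme, measured 7.02 in that array and 5.83 to 6.17 in the other 8, but its dimmer probe set measured 3.46 there and 3.20 to 3.62 in the others. The dipeptidase Dpep2 measured 4.76 there and at most 4.18 elsewhere, and Fpr2, a receptor for lipoxins and formyl peptides, 3.92 there and at most 3.02 elsewhere. Pla2g4a (5.91), Cbr1 (9.58) and Ptger3 (8.01) were also at their highest there. Others had their lowest value of all 9 arrays there: Pla2g1b, Pla2g2a, Pla2g3, Alox8, Hpgds, Ptgir, Cysltr2, Cyp2j5 and Cyp2j11. These included Cyp2j5 (11.42) and Cyp2j11 (8.88), besides dim genes such as Hpgds, a prostaglandin D synthase (2.89), and Cysltr2 (3.68). Ltc4s and Tbxas1 were not at their highest there. The leukotriene B receptor Ltb4r1 measured 3.44 there, close to its highest value elsewhere, 3.45. Of the 8 members 4 had their highest value in this array (Alox5, Alox12, Ptgs2 and Ptgds), while Ephx2 had its lowest. Alox5 exceeded the next array by only 0.0058. Its dimmer probe set was not at its highest there, at 11.77 intensity units against 14.70 in db/db replicate 1. The Fpr2 difference in db/db against db/m was 0.52 with the array and 0.18 without it, and that of Dpep2 was 0.43 and 0.23. The part of blood cells in the Ptgs2 and Ptgds values of this array was not tested.

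**Figure D4:**
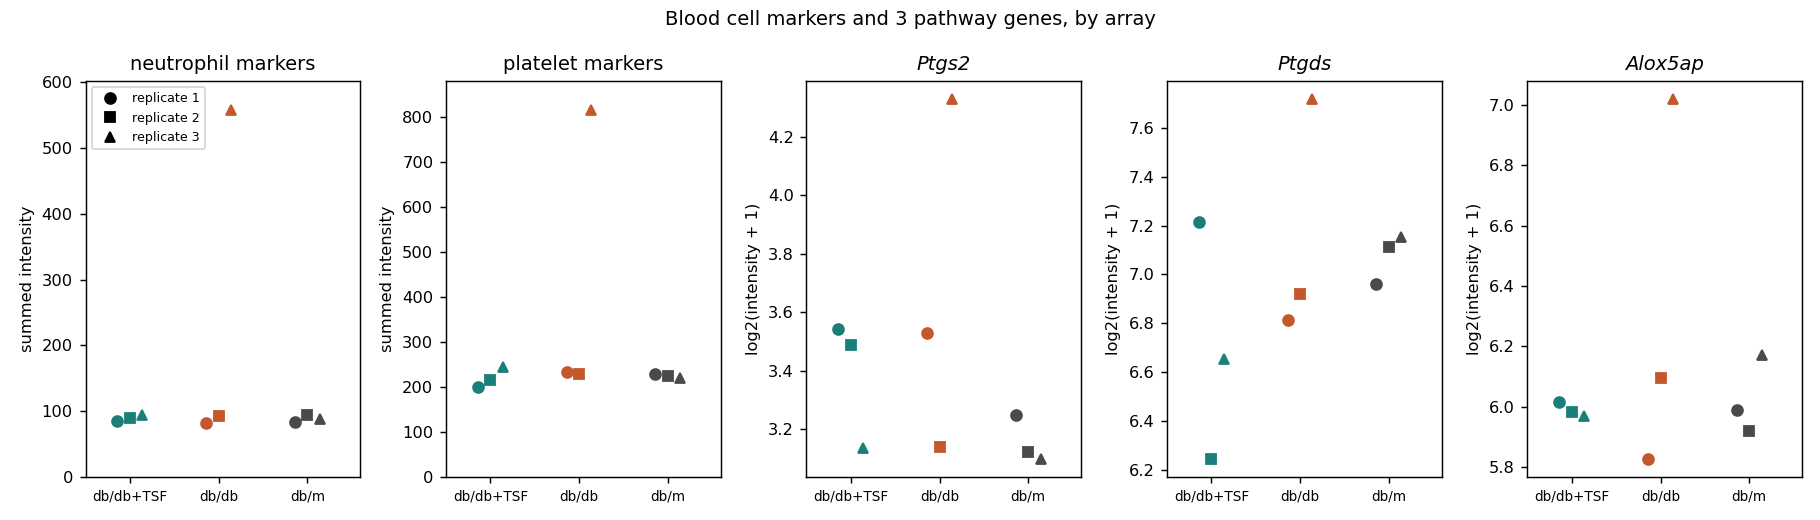
Summed intensity of neutrophil and platelet markers, and log2(intensity + 1) of Ptgs2, Ptgds and Alox5ap, by array in db/db+TSF, db/db and db/m; symbols are replicates. The db/db replicate 3 triangle is the highest point of every panel, for example 557 for the neutrophil markers.

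Among the other prostanoid synthases 0 of 7 passed by limma in any comparison, and 1 had an unadjusted p under 0.05 in each comparison with db/m. Cbr1, a carbonyl reductase that converts prostaglandin E to F, averaged 8.69 ± 0.38 in db/db+TSF, 9.00 ± 0.50 in db/db and 8.13 ± 0.39 in db/m (SD, n = 3 each; limma adjusted p = 0.163 for db/db against db/m). Ptgis, the prostacyclin synthase, averaged 6.07 in db/db+TSF, 5.85 in db/db and 5.64 in db/m (adjusted p = 0.0917 with db/db+TSF set against db/m). Tbxas1, the thromboxane synthase, averaged 4.75 in db/db+TSF, 4.87 in db/db and 5.01 in db/m, and Prxl2b, a prostaglandin F synthase, averaged 5.93, 5.94 and 5.66 in the same groups.

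Of 11 receptors tested, Ptgfr, the prostaglandin F receptor, rose in db/db+TSF against db/m. It measured 7.55, 7.79 and 7.53 in db/db+TSF, 7.49, 7.27 and 7.44 in db/db and 6.92, 7.16 and 6.78 in db/m. The 3 groups did not overlap and stood in that order, though the closest arrays of the db/db groups lay at 7.53 and 7.49. Of all genes, 7.81% were apart and higher in db/db+TSF against db/db, and 10.4% in db/db against db/m. Between db/db+TSF and db/db Ptgfr differed by 0.22 (SE 0.12, adjusted p = 0.494). The difference was 0.67 (SE 0.12, adjusted p = 0.0152) in db/db+TSF relative to db/m, a call lost without db/db+TSF replicate 2 (0.0639) or db/m replicate 1 (0.0578), and 0.45 (SE 0.12, adjusted p = 0.117) for db/db against db/m. Ptger3, a prostaglandin E receptor of the distal nephron, averaged 7.18 in db/db+TSF, 7.72 in db/db and 6.91 in db/m, with db/db apart from db/m but not past the threshold (adjusted p = 0.139). The summed intensity of 6 distal tubule and Henle loop markers was 8501 to 9578 in db/db+TSF, 8453 to 9564 in db/db and 7101 to 7435 in db/m, and its part in the Ptger3 values was not tested. Cysltr2, a receptor for cysteinyl leukotrienes, averaged 3.80 in db/db+TSF, 3.80 in db/db and 4.21 in db/m (adjusted p = 0.113 and 0.167 against db/m).

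Of 11 phospholipases that release arachidonic acid 0 passed by limma in any comparison. An unadjusted p under 0.05 was found for 3 with db/db set against db/m, as for 2474 of all 17740 genes. With db/db+TSF set against db/m it was found for 1, as for 3050 of all genes. Pla2g4a, the cytosolic phospholipase that feeds most prostaglandin synthesis, averaged 5.43 in db/db+TSF, 5.71 in db/db and 5.29 in db/m (adjusted p = 0.207 for db/db against db/m). Pla2g6, the calcium-independent form, averaged 6.33 in db/db+TSF, 6.34 in db/db and 6.67 in db/m (adjusted p = 0.14 and 0.209 against db/m). The secreted forms Pla2g3 and Pla2g10 averaged 4.37 and 3.25 in db/db+TSF, 4.17 and 3.38 in db/db and 4.24 and 3.44 in db/m.

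**Figure D5:**
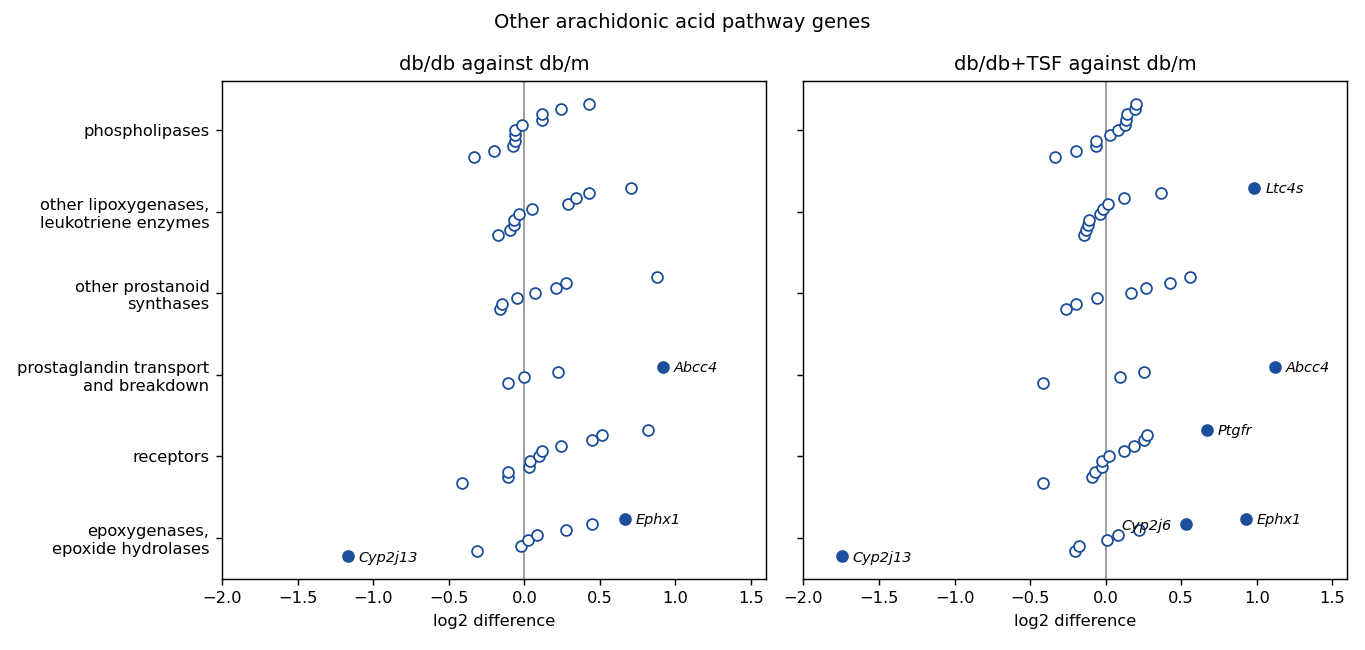
Log2 difference of the 51 other arachidonic acid genes tested, by role, in db/db against db/m (left) and db/db+TSF against db/m (right). Each circle is a gene, and filled, named circles passed an adjusted p of 0.05 over all genes. Cyp2j13 lies lowest, at -1.17 and -1.75, and Abcc4 highest, at 0.92 and 1.12.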

How the data were processed

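Arrays of total RNA from kidney cortex were analysed, 3 per group. Each probe set has 1 deposited intensity per array, on a linear scale, made per the submitters' processing notes with Affymetrix Expression Console and Transcriptome Analysis Console. The normalization they applied is not given in the sources used here. No detection calls were used, so a low value cannot be told from background, and the number of arrays limits the precision. Of 41345 probe sets, 23521 had 1 gene symbol, 1814 had several and 16010, array controls included, had none; Entrez identifiers of 23328 matched a RefSeq table of GRCm38. The brightest single-symbol probe set stood for each of 22180 genes. Values were taken as log2(value + 1), so differences of dim genes are understated, and genes whose mean lay below the 30th percentile of probe set means (2.65) were left out, which left 17740. Limma 3.58.1 in R 4.3.3 fitted 1 mean per group to all 9 arrays with eBayes, and p-values were Benjamini-Hochberg adjusted over all genes (threshold 0.05). Every SE and adjusted p printed is from that limma fit unless an alternative is named. The p-values set differences between groups against the spread of these samples within groups, which may be single mice or pools. The fit was tested on simulated data.

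The members and the lists of pathway genes and markers were chosen with earlier results of these data known. Named pathway genes were those past the threshold in any comparison and the 2 of smallest p per list and comparison; for Alox15, the 5 highest and 5 lowest correlations were named, leaving out clone and model names. Neighbours of Alox15, the pathway genes described for db/db replicate 3 and single cell type markers were named outside this rule after values were seen. Alternatives covered the probe set, filter, scaling, pseudocount, variance model, array weights, which arrays entered, a replicate block and the threshold.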

Additional observations from a re-analysis of the deposited data

How the results depend on the processing

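The number of the 8 measured lipoxygenase and prostaglandin genes called stayed at 1 in each comparison with db/m and 0 between the db/db groups under all alternatives run, and with 1 array left out it ranged from 1 to 1, 1 to 1 and 0 to 0. Since Alox15 was chosen for its difference, this is no sign of stability. The count of other pathway genes in db/db against db/m was 0 without moderation, 0 at a threshold of 0.01 and 5 at 0.1, and 0 to 3 with 1 array left out; in db/db+TSF against db/m it was 0 without moderation and 4 to 6 with 1 array left out. Over all genes the count in db/db against db/m, 187, was 26 without moderation, 56 at 0.01, 442 at 0.1 and 72 to 194 with 1 array left out; in db/db+TSF against db/m, 556, it was 73, 128, 1012 and 213 to 563. The causes were not tested. The Dpep2 difference between db/db+TSF and db/db, -0.30 by its brighter probe set, was 0.0478 when its probe sets were averaged. Same-numbered arrays share only a number: 2 of 9 pairs had correlated deviations over 0.1. With the replicate number as a block, 2 other pathway genes were called with db/db set against db/m and 5 with db/db+TSF set against it, the members' counts stayed at 1, 1 and 0, and with db/db against db/m the calls of Cyp2j13 and Ephx1 were lost while Ltc4s passed (adjusted p = 0.0425).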
